A study of Mus musculus with 16 samples.

Results

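The genes described here are 40 mouse genes listed as antiviral genes that type I interferon induces. They were picked by symbol from a list, by a rule that uses no measured value, although the list was drawn up with earlier results of these data known. Of the 40, 38 were present in the deposited values and all 38 were measured well enough to be tested, out of 18929 genes listed and 12850 tested in all. Mx1 and Mx2 were not analysed here.

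Cells make type I interferon (interferon beta and the interferon alphas) when they sense foreign or misplaced nucleic acid. The interferon binds the receptor IFNAR1/IFNAR2 and activates JAK1 and TYK2, and the complex ISGF3, which holds STAT2 and IRF9, then turns on genes that carry its response element. Interferon gamma, which T cells and natural killer cells make, uses another receptor. Many of the same genes respond to it as well, so the question asked of these data was whether the antiviral genes moved with Ifng, the gene of interferon gamma, or without it.

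Messenger RNA was measured in 16 B16F10 tumors, 4 in each of 4 groups. B16F10 is a pigmented mouse melanoma line, injected into female C57BL/6 mice 7 to 8 weeks old, and treatment began at a tumor volume of about 50 mm3 and lasted 9 to 11 days. The mice received corn oil and an isotype IgG (vehicle), an antibody against the T-cell checkpoint receptor PD-1 (anti-PD1), α-ketoglutarate at 100 mg/kg (α-KG), or both agents (α-KG + anti-PD1), all by intraperitoneal injection. Values are FPKM, fragments per kilobase of transcript scaled to the mapped fragments of the library, and are given below for tumors 1 to 4 of a group in that order. Nothing in the labels pairs tumors by number.

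The stretch before a transcription start of 6 of these genes is shown because it holds the pattern that ISGF3 and related factors read, and that of Isg20 is shown because it does not. The sequences are the 160 bases before a start, read 5′ to 3′ along the gene, from RefSeq (build GRCm38.p6). For Ifit3, Oas3, Slfn5 and Isg20 the start used lies inside the span annotated for the gene, so it is not the outermost one. Isg20 has 3 windows, of which the first is shown. Capitals mark matches to GAAANNGAAA on either strand, and matches that overlap run together. Isg15 lies at chr4:156200819-156200978, minus strand. Ifit1 lies at chr19:34640729-34640888, plus strand. Ifit3 lies at chr19:34583369-34583528, plus strand. Oas3 lies at chr5:120777660-120777819, minus strand. Slfn5 lies at chr11:82951942-82952101, plus strand. Rsad2 lies at chr12:26456453-26456612, minus strand. Isg20 lies at chr7:78913264-78913423, plus strand.
Isg15: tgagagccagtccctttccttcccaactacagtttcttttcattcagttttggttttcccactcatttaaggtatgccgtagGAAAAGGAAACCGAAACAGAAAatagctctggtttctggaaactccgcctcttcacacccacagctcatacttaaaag
Ifit1: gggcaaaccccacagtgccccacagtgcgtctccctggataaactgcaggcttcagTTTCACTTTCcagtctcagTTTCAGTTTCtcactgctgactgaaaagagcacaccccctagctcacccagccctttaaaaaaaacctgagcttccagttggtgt
Ifit3: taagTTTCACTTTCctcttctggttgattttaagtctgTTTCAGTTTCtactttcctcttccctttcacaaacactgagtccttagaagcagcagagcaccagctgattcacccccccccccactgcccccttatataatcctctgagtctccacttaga
Oas3: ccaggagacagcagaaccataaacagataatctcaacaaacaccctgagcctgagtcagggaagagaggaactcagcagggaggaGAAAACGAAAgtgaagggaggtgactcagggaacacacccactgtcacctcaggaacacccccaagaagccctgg
Slfn5: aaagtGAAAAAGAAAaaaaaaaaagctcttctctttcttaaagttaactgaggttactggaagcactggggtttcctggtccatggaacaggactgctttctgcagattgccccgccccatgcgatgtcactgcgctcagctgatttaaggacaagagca
Rsad2: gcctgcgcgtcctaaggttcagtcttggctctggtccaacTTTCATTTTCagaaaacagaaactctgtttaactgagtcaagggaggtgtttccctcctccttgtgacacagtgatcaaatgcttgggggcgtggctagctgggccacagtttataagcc
Isg20: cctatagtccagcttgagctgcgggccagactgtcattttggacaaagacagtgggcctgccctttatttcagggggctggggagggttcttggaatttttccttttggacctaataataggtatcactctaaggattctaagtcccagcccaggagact
Isg15 held 3 overlapping matches, Ifit1 and Ifit3 held 2 each, and Oas3, Slfn5 and Rsad2 held 1 each. In the window from 250 bases before to 50 bases after the start, 14 of the 30 genes with a RefSeq window (46.7%) held GAAANNGAAA, against 3.99% of all 27025 genes. The pattern was not particular to these genes: 5 of 11 genes with a window in the interferon gamma program, a list used below, held it too. A palindrome, TTCNNNGAA, was held by 9 of the 30 (30%), against 9.55% of all genes, and by 5 of those 11. A match describes the letters only. Parp9, Oas2, Dhx58, Zbp1, Ifi204, Rtp4, Ifi27l2a and Parp14 had no window in the RefSeq file used. Several of the genes are neighbors in the same annotation: the 4 Ifit genes lie within 99.5 kb on chromosome 19, and 4 Oas genes within 177 kb and Oasl1 and Oasl2 within 41.0 kb on chromosome 5.

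The tumors carried the melanocyte genes that B16F10 cells express, with Pmel at 1915 to 2812 FPKM in all 16 tumors. They also held leukocytes in unequal amounts. A leukocyte score, the mean of log2(FPKM + 1) over 9 markers such as Ptprc (CD45), spanned 2.23 to 4.01 in vehicle tumors and 4.08 to 5.02 after anti-PD1. It spanned 5.58 to 5.70 after α-KG and 4.74 to 6.54 after the combination. All 7 neutrophil markers were higher after α-KG alone than in vehicle, and S100a9 reached 529 to 1473 FPKM there, against 4.86 to 14.7 in vehicle. In bulk RNA, more cells of a type and more RNA per cell cannot be told apart. Depth per tumor is unknown, FPKM were deposited without a stated scaling between tumors, and the median gene of the 12850 was 0.15 higher on the log2 scale in α-KG + anti-PD1 than in vehicle. Scaled in 3 other ways, that shift was −0.16 to 0.34 and the median of the 38 genes stayed at 1.26 to 1.77.

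Ifng was low outside the combination. It was 0.79, 0.26, 0 and 0.11 FPKM in vehicle, 0.26, 1.63, 2.42 and 0.72 in anti-PD1, 0.27, 0.77, 0.18 and 0.06 in α-KG and 11.5, 4.37, 14.4 and 1.37 in α-KG + anti-PD1 tumors. The 4 combination tumors were above every vehicle and α-KG tumor, and combination tumor 4 lay within the anti-PD1 range. In limma, fitted to all genes with p adjusted over all 12850, Ifng was 2.48 ± 0.46 (log2 change ± SE) higher in α-KG + anti-PD1 than in vehicle, 0.74 ± 0.46 in anti-PD1 (95% interval −0.24 to 1.72) and 0.04 ± 0.46 in α-KG (−0.94 to 1.03). The first passed the threshold of 0.05 (adjusted p = 9.46e-04) and the others did not.

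**Figure D1:**
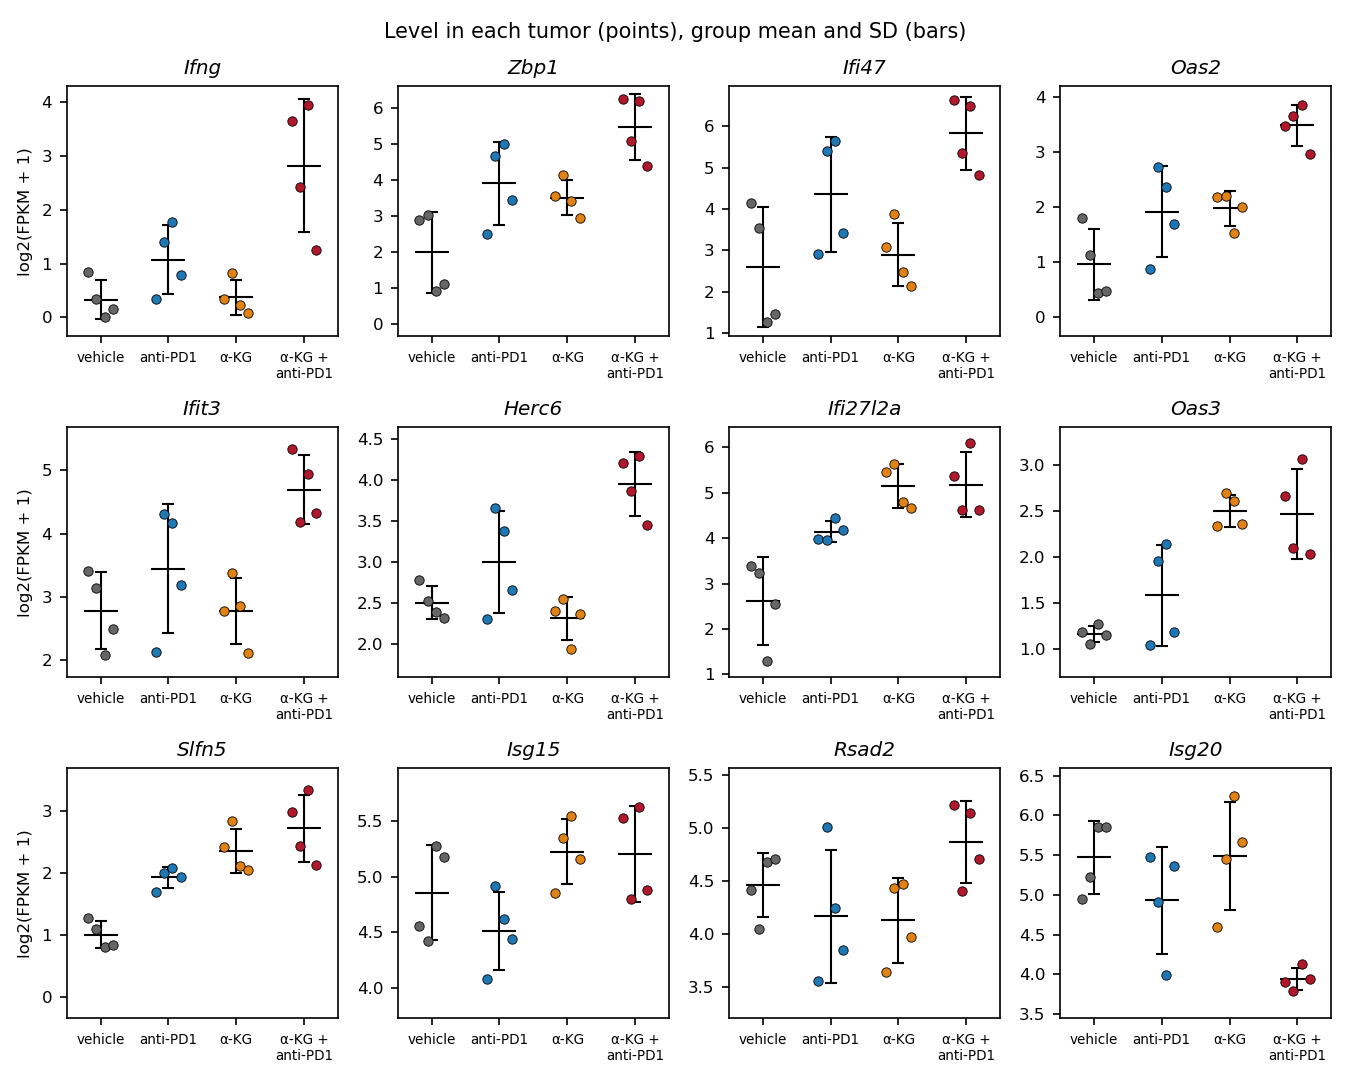
Level of Ifng and of 11 antiviral genes in each of the 16 tumors on the log2(FPKM + 1) scale (y axis), by treatment group (x axis). Points are tumors and bars are the group mean and SD (n = 4), and the y axes differ between panels. Zbp1, Ifi47, Oas2, Ifit3 and Herc6 are highest with α-KG + anti-PD1, Ifi27l2a, Oas3 and Slfn5 are also above vehicle with α-KG alone, Isg15 and Rsad2 overlap in all groups, and Isg20 is lowest with the combination.

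With α-KG + anti-PD1 the antiviral genes rose almost together. Of the 38, 35 were higher than in vehicle and 1, Isg20, was lower, with a median log2 change of 1.57 over the 38 against 0.15 over all genes tested. Among all genes tested, 34.9% were called higher and 10.5% lower. Every member of the IFIT, OAS and nucleic acid sensor groups was among the 35, and only Isg15 and Rsad2 passed in neither direction. Each of the 35 stood above vehicle with no overlap between the 4 tumors of either group. The share of all genes without such overlap was not counted. Markers of T cells (8 of 8 higher, median log2 change 2.60) and of macrophages and monocytes (9 of 9, median 2.57) rose in the same tumors, and their part in the increases was not tested. The counts were 35 and 1 as well in every other setting without Ifng or the leukocyte score in the fit, the omission of each tumor in turn included.

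Among the genes of the ISG15 system, the ubiquitin-like modifier itself behaved differently from the ligases around it. Herc6, the ligase that attaches ISG15 to proteins in mice, was 5.9, 4.76, 4.28 and 4.01 FPKM in vehicle, 3.97, 11.7, 9.44 and 5.34 in anti-PD1, 4.29, 4.85, 2.86 and 4.16 in α-KG and 17.5, 13.6, 18.7 and 9.94 in α-KG + anti-PD1 tumors. The combination tumors were all above vehicle and α-KG tumors, while anti-PD1 tumor 2 reached into their range. The increase over vehicle was 1.45 ± 0.26 (adjusted p = 7.09e-04). Trim25, a ubiquitin ligase that assists RIG-I, was 5.1, 4.75, 2.72 and 2.55 FPKM in vehicle, 4.96, 8.93, 7.68 and 6.98 in anti-PD1, 8.18, 9, 6.04 and 7.42 in α-KG and 13.2, 8.79, 12.9 and 9.07 in α-KG + anti-PD1 tumors, and rose by 1.35 ± 0.20. Parp9 and Dtx3l, which work as a pair of ADP-ribosyltransferase and ubiquitin ligase, rose by 1.51 and 1.30. Isg15 itself was 22.6, 20.4, 37.7 and 35.1 FPKM in vehicle, 15.9, 29.1, 23.6 and 20.7 in anti-PD1, 27.9, 39.6, 45.5 and 34.6 in α-KG and 45.2, 26.8, 48.4 and 28.4 in α-KG + anti-PD1 tumors. Its groups overlapped throughout, and the difference between the combination and vehicle was 0.35 ± 0.24 (95% interval −0.16 to 0.86, adjusted p = 0.248).

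The IFIT proteins bind viral RNA that lacks the marks of host RNA, and PKR, the product of Eif2ak2, halts translation when it senses viral RNA. Ifit1 was 2.25, 2.3, 0.98 and 1.34 FPKM in vehicle, 1.82, 7.2, 4.04 and 2.44 in anti-PD1, 3.2, 4.1, 3.07 and 2.22 in α-KG and 10.3, 5.4, 7.85 and 7.03 in α-KG + anti-PD1 tumors. Ifit3 was 9.69, 7.84, 3.23 and 4.66 FPKM in vehicle, 3.36, 18.9, 16.9 and 8.11 in anti-PD1, 5.83, 9.41, 6.22 and 3.31 in α-KG and 39.4, 17.1, 29.8 and 19.1 in α-KG + anti-PD1 tumors. Both were higher in each combination tumor than in any vehicle or α-KG tumor, while the anti-PD1 tumors with the most overlapped them. The log2 changes against vehicle were 1.67 ± 0.28 for Ifit1 and 1.91 ± 0.44 for Ifit3 (adjusted p = 5.81e-04 and 0.00310). Eif2ak2 was 9.42, 6.98, 6.04 and 4.9 FPKM in vehicle, 5.16, 11.6, 10.6 and 6.56 in anti-PD1, 5.95, 8.54, 5.49 and 6.96 in α-KG and 15.8, 13.2, 17.1 and 12.9 in α-KG + anti-PD1 tumors, and each combination tumor exceeded every tumor of the other groups. It rose by 1.03 ± 0.22, and Ifit2, the least changed of the genes that rose, by 0.86 ± 0.18 from 9.57, 10.4, 6.85 and 6.93 FPKM to 19.8, 12.3, 18.2 and 14.3. Ifit3 and Ifit3b are near-identical copies, as are Oas1a and Oas1g, so reads may have been split between them and their single values are uncertain.

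The OAS enzymes make short oligoadenylate messengers when they bind viral RNA, and all 6 were higher with the combination, with a median log2 change of 1.62. Oas2 was 2.48, 1.19, 0.35 and 0.38 FPKM in vehicle, 0.82, 5.63, 4.16 and 2.23 in anti-PD1, 3.51, 3.6, 1.87 and 3.01 in α-KG and 9.99, 11.5, 13.3 and 6.81 in α-KG + anti-PD1 tumors. Every combination tumor was above every other tumor, and the change from vehicle was 2.52 ± 0.37 (adjusted p = 4.17e-04). Oasl2, a relative of the enzymes, was 6.15, 3.94, 1.62 and 2.29 FPKM in vehicle, 2.92, 12.7, 13.6 and 5.21 in anti-PD1, 10.9, 12.6, 10.7 and 9.25 in α-KG and 28.0, 14.2, 33.1 and 12.6 in α-KG + anti-PD1 tumors. Its α-KG and α-KG + anti-PD1 tumors both lay above vehicle and met at 12.6 FPKM. It rose by 2.35 ± 0.41 with the combination.

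Sensors of nucleic acid had the highest median log2 change of the role groups, 2.11. Zbp1, which recognizes left-handed nucleic acid and can trigger necroptosis, was 6.36, 7.16, 0.86 and 1.16 FPKM in vehicle, 4.63, 24.4, 31.0 and 9.83 in anti-PD1, 10.7, 16.5, 9.63 and 6.59 in α-KG and 75.0, 32.4, 71.1 and 19.7 in α-KG + anti-PD1 tumors. Its combination tumors were above all vehicle and α-KG tumors, with tumors 1 and 3 far above tumors 2 and 4, and the log2 change of 3.48 ± 0.60 was the greatest of the 38 (adjusted p = 6.19e-04). Ifih1, which encodes the RNA sensor MDA5, was 2.36, 2.12, 0.9 and 0.93 FPKM in vehicle, 1.13, 4.36, 3.69 and 2.12 in anti-PD1, 1.37, 2.23, 1.56 and 1.29 in α-KG and 7.54, 3.84, 6.34 and 4.45 in α-KG + anti-PD1 tumors. Adar, which edits RNA and so shields host transcripts from MDA5, was 14.7, 10.9, 7.92 and 7.69 FPKM in vehicle, 8.67, 22.5, 17.3 and 10.4 in anti-PD1, 10.7, 11.4, 8.21 and 10.3 in α-KG and 24.3, 23.3, 29.4 and 19.9 in α-KG + anti-PD1 tumors. These changed less, by 1.36 ± 0.28 and 1.19 ± 0.25, again with no overlap between combination and vehicle tumors. Dhx58, the MDA5 helper LGP2, rose by 2.11, and Ifi204, a DNA sensor of the family to which human IFI16 belongs, by 2.49.

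Effectors that act on the virus itself were less uniform: 5 of the 7 rose, 1 fell and 1 did neither. Samhd1, which lowers the nucleotide pool, was 14.6, 13.0, 11.6 and 11.7 FPKM in vehicle, 13.7, 24.3, 28.5 and 17.4 in anti-PD1, 20.6, 27.1, 20.2 and 20.5 in α-KG and 63.2, 29.2, 69.4 and 22.4 in α-KG + anti-PD1 tumors. Bst2 (tetherin), which holds budding virions at the membrane, was 93.9, 83.1, 36.8 and 39.4 FPKM in vehicle, 60.8, 145, 181 and 78.3 in anti-PD1, 76.3, 92.8, 55.0 and 55.6 in α-KG and 238, 182, 281 and 140.4 in α-KG + anti-PD1 tumors. Ifitm3, which blocks entry through endosomes and was the most abundant of the 38 genes, was 233, 211, 100.3 and 141 FPKM in vehicle, 142, 343, 379.5 and 213 in anti-PD1, 355, 307, 287 and 235 in α-KG and 480.2, 346, 574 and 313 in α-KG + anti-PD1 tumors. All 3 were higher in each combination tumor than in each vehicle tumor, by 1.63 ± 0.30, 1.79 ± 0.36 and 1.35 ± 0.31. Rtp4 and Cmpk2 rose by 1.97 and 1.56. Rsad2 (viperin), which makes a chain-terminating nucleotide, was 20.2, 15.5, 24.6 and 25 FPKM in vehicle, 10.7, 31.2, 17.9 and 13.4 in anti-PD1, 11.4, 20.6, 21.2 and 14.6 in α-KG and 36.1, 20.1, 34.3 and 25.1 in α-KG + anti-PD1 tumors. Its groups overlapped and its change was 0.41 ± 0.28 (95% interval −0.19 to 1.01, adjusted p = 0.251), although Cmpk2 lies beside it on chromosome 12.

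The other 10 interferon-induced genes were all higher, with a median log2 change of 1.98. Ifi47, an immunity-related GTPase, was 16.6, 10.6, 1.42 and 1.75 FPKM in vehicle, 6.59, 41.6, 49.2 and 9.68 in anti-PD1, 7.46, 13.8, 4.58 and 3.44 in α-KG and 97.5, 40.2, 88.9 and 27.4 in α-KG + anti-PD1 tumors. Vehicle tumors 3 and 4 had the least of all tumors and combination tumors 1 and 3 the most, and the change of 3.22 ± 0.72 carried the greatest error of the 38. Ifi27l2a, a small protein of mitochondria and the nuclear envelope, was 9.53, 8.43, 1.44 and 4.88 FPKM in vehicle, 14.7, 14.7, 20.8 and 17.2 in anti-PD1, 43.1, 48.9, 26.9 and 24.3 in α-KG and 40.4, 23.5, 67.4 and 23.8 in α-KG + anti-PD1 tumors, and rose by 2.56 ± 0.41. It differed from Ifi47 in its α-KG tumors, which reached the combination's range. Parp14, Epsti1, Trim30a, Sp100, Slfn5, Xaf1, Ifi35 and Ifi44 rose by 1.46 to 2.36.

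**Figure D2:**
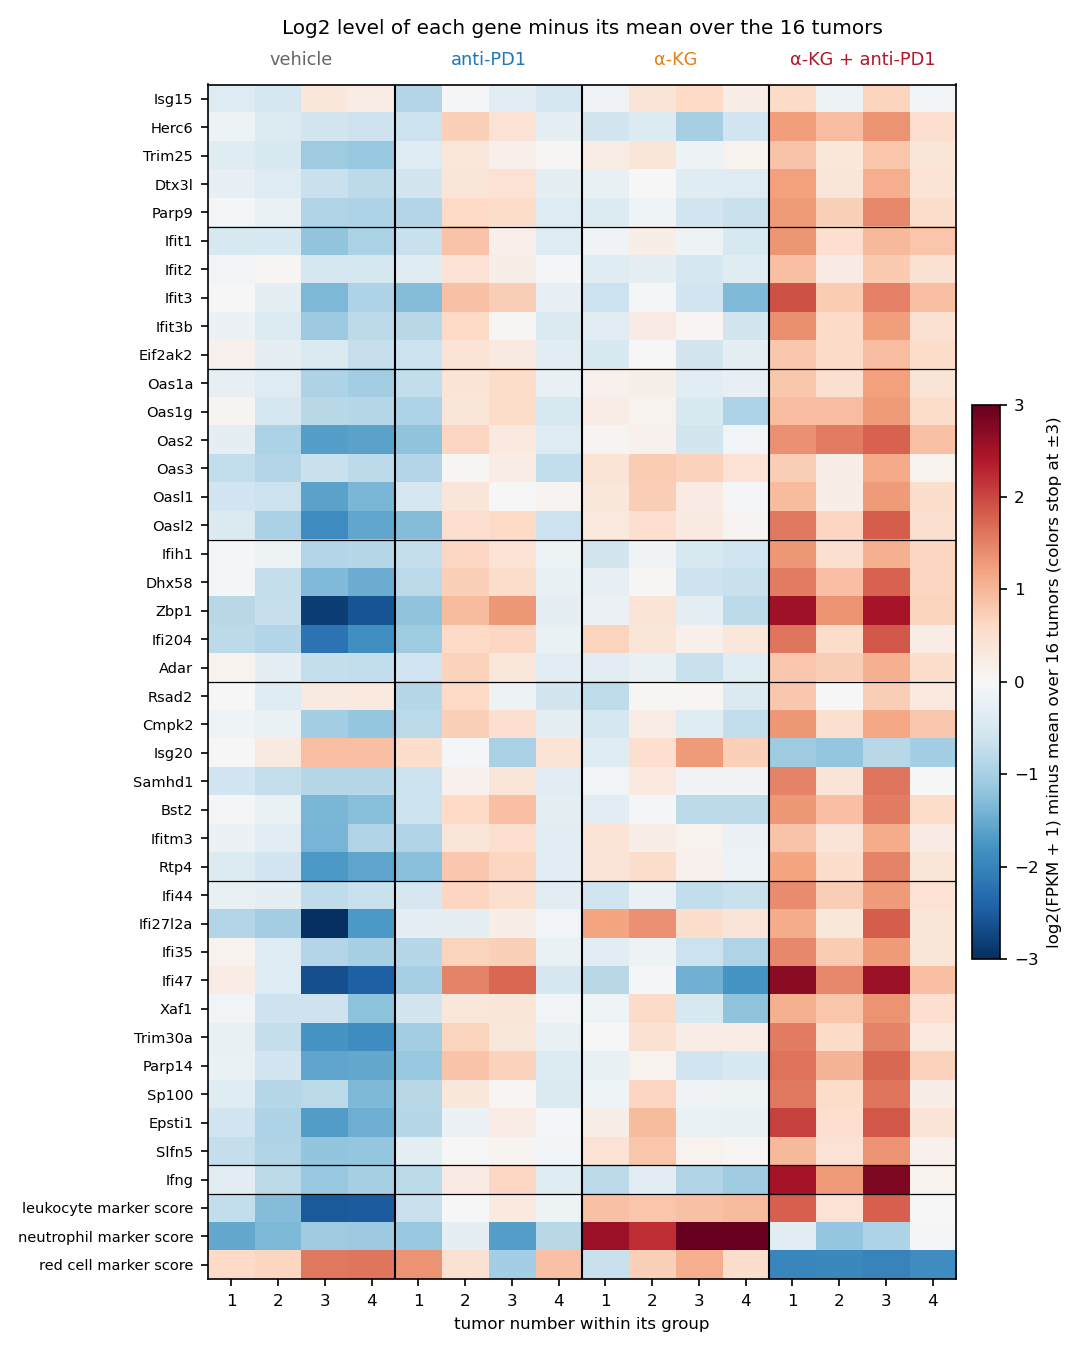
Each antiviral gene (one per line, grouped by role, with Ifng and 3 marker scores at the foot) in each of the 16 tumors (columns). Color is log2(FPKM + 1), or the score, minus its mean over the 16 tumors, from blue (lower) to red (higher), and stops at ±3. For most genes vehicle tumors 3 and 4 are the lowest and combination tumors 1 and 3 the highest, as they are for the leukocyte score, while Isg20 follows the red cell score.

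Isg20, an exonuclease that degrades RNA, went the other way. It was 29.9, 36.3, 56.8 and 57 FPKM in vehicle, 43.5, 29.0, 14.9 and 40.1 in anti-PD1, 23.2, 42.9, 75.0 and 49.7 in α-KG and 13.9, 12.9, 16.5 and 14.4 in α-KG + anti-PD1 tumors. All 4 combination tumors were below every vehicle and α-KG tumor, with anti-PD1 tumor 3 among them, and the change from vehicle was −1.53 ± 0.34 (adjusted p = 0.00245). Red cell transcripts fell in the same tumors: a score over 6 red cell markers was 8.29 to 8.42 with the combination, against 10.9 to 11.9 in vehicle and 9.29 to 11.6 with anti-PD1, and Alas2, the heme synthesis enzyme of red cell precursors, changed by −3.15 ± 0.46. A slope on the red cell score was chosen after seeing the data, so its p-value does not carry its nominal meaning. Within groups, Isg20 rose by 0.74 ± 0.07 per unit of that score (adjusted p = 3.35e-05 in limma). Of all genes tested, 17, or 0.132%, had a slope that passed in either direction. No other gene of the 38 did. The part of red cell content in the fall of Isg20 was not tested. Anti-PD1 tumor 3 and α-KG tumor 1 had the lowest Isg20 of their groups, at 14.9 and 23.2 FPKM, and the lowest Alas2 of their groups, at 69.7 and 109 FPKM. Ube2l6, the enzyme that passes ISG15 to its ligases, was 96.1, 92.2, 144 and 135 FPKM in vehicle, 131, 96.6, 61.1 and 89.0 in anti-PD1, 45.8, 97.6, 151 and 101 in α-KG and 80.6, 43.0, 76.7 and 36.9 in α-KG + anti-PD1 tumors, and was lower with the combination, at −1.02 ± 0.33.

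Anti-PD1 alone left the genes between vehicle and the combination, but with a wide spread. None of the 38 passed in limma, where 0.747% of all genes did in either direction. Of the 38, 19 had an unadjusted p under 0.05. The share of all genes under that p was not counted, here or for the same counts below. The median change was 0.66, against 0.03 over all genes. The highest changes were 1.92 ± 0.60 for Zbp1 (95% interval 0.65 to 3.19), 1.75 ± 0.72 for Ifi47 (0.22 to 3.28) and 1.52 ± 0.41 for Ifi27l2a (0.66 to 2.39). The lowest were −0.54 ± 0.34 for Isg20, −0.34 ± 0.24 for Isg15 and −0.30 ± 0.28 for Rsad2. For most of the genes tumors 2 and 3 were above tumors 1 and 4. Ifi27l2a, Oasl1, Epsti1 and Isg20 were exceptions. For Ifi47 the first pair had 41.6 and 49.2 FPKM and the second 6.59 and 9.68. The leukocyte score split the same pairs, at 4.76 and 5.02 against 4.08 and 4.58. Without vehicle tumor 1, 7 of the 38 passed, and the calls over all 12823 genes rose as well, to 528 higher and 355 lower.

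After α-KG alone, 10 of the 38 genes rose while Ifng did not differ detectably from vehicle. Among all genes, 8.4% were called higher, and 17 of the 38 had an unadjusted p under 0.05. Ifi27l2a changed the most, by 2.52 ± 0.41 (adjusted p = 5.52e-04), which in FPKM was 35.8 ± 12.1 against 6.07 ± 3.67 (SD, n = 4). Ifi204 was 3.76, 3.41, 0.76 and 1.29 FPKM in vehicle, 2.89, 11.3, 11.6 and 6.11 in anti-PD1, 11.9, 9.5, 8.05 and 9.28 in α-KG and 23.8, 11.0, 28.7 and 8.52 in α-KG + anti-PD1 tumors, and rose by 1.81 ± 0.42. The α-KG tumors were all above vehicle and overlapped the combination.

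3 of the 10 were OAS family genes. Oas3 was 1.28, 1.07, 1.41 and 1.22 FPKM in vehicle, 1.06, 2.89, 3.42 and 1.28 in anti-PD1, 4.04, 5.46, 5.12 and 4.15 in α-KG and 5.33, 3.29, 7.36 and 3.09 in α-KG + anti-PD1 tumors. It differed from most of the 38, since its α-KG tumors reached the combination and its vehicle tumors barely varied, and its rise was 1.34 ± 0.25 (adjusted p = 0.00165). Oasl1, which restrains the translation of Irf7, was 2.57, 2.39, 0.74 and 1.07 FPKM in vehicle, 2.76, 5.89, 4.4 and 4.65 in anti-PD1, 5.71, 7.89, 5.31 and 4.2 in α-KG and 9.25, 4.96, 12 and 6.67 in α-KG + anti-PD1 tumors, and rose by 1.37 ± 0.28. Oasl2 rose by 1.5 ± 0.41.

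The others were regulators and genes of less known function. Slfn5, of the Schlafen family, was 1.42, 1.13, 0.75 and 0.78 FPKM in vehicle, 2.24, 3, 3.22 and 2.8 in anti-PD1, 4.36, 6.11, 3.31 and 3.11 in α-KG and 6.86, 4.41, 9.13 and 3.38 in α-KG + anti-PD1 tumors. Its anti-PD1, α-KG and combination tumors were all above vehicle, and its α-KG rise was 1.35 ± 0.23 (adjusted p = 8.47e-04). Trim30a, a TRIM-family ubiquitin ligase, was 4.98, 3.25, 1.03 and 0.92 FPKM in vehicle, 2.39, 10, 7.84 and 4.99 in anti-PD1, 6.01, 8.53, 7.1 and 7.1 in α-KG and 19.6, 9.29, 18.4 and 7.58 in α-KG + anti-PD1 tumors. Epsti1 was 1.41, 0.88, 0.12 and 0.29 FPKM in vehicle, 0.98, 2.16, 3.2 and 2.45 in anti-PD1, 3.02, 5.88, 2.13 and 2.06 in α-KG and 13.9, 4.05, 12 and 3.67 in α-KG + anti-PD1 tumors. Rtp4, which binds flavivirus RNA, was 10.8, 9.51, 3.8 and 4.22 FPKM in vehicle, 5.58, 26.6, 23.4 and 11.5 in anti-PD1, 19.5, 21.6, 16.1 and 13.1 in α-KG and 34.6, 21.8, 43.3 and 19.4 in α-KG + anti-PD1 tumors. Trim25, Trim30a, Epsti1 and Rtp4 rose by 0.89 ± 0.20, 1.37 ± 0.40, 1.33 ± 0.39 and 1.29 ± 0.41. Of the 10, Slfn5, Oas3, Oasl1, Ifi27l2a, Ifi204 and Trim25 passed in all 25 settings without Ifng or the leukocyte score in the fit. Oasl2, Epsti1, Trim30a and Rtp4 passed in 21, 20, 18 and 15 of them. These settings include the main fit, and the fits with the leukocyte score are given below.

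The rest of the antiviral genes did not pass against vehicle after α-KG. Among them, Samhd1, Ifitm3 and Sp100 were higher in every α-KG tumor than in any vehicle tumor. The share of all genes with such a separation between α-KG and vehicle was not counted. For Sp100 the values were 10.6 to 19.1 against 4.06 to 8.95 FPKM. The lowest changes were −0.33 ± 0.28 for Rsad2 (95% interval −0.93 to 0.27), −0.19 ± 0.26 for Herc6 (−0.74 to 0.35) and −0.12 ± 0.18 for Ifit2 (−0.50 to 0.25). Ifit3, at −0.01 ± 0.44 (−0.94 to 0.92), and Ifi47, at 0.30 ± 0.72 (−1.23 to 1.83), had wide intervals. Zbp1 had the third greatest change, 1.52 ± 0.60, and did not pass (adjusted p = 0.0979). Leukocyte and neutrophil markers were higher in the same α-KG tumors, with all 9 and all 7 called, as were 6 of 9 macrophage and monocyte markers (median log2 change 1.80), whereas none of 8 T-cell markers was called. These cells and the 10 increases cannot be told apart by group. With the leukocyte score in the fit, 0 of the 38 were higher after α-KG than in vehicle and 4 were lower, Ifi47, Ifi35, Parp9 and Ifit2. Of all genes, 1.35% were called higher and 1.11% lower in that fit, which extrapolates, since no vehicle tumor reached the scores of the α-KG tumors. Among genes with a RefSeq window, 3 of the 7 that rose after α-KG and 11 of the 23 others held GAAANNGAAA.

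**Figure D3:**
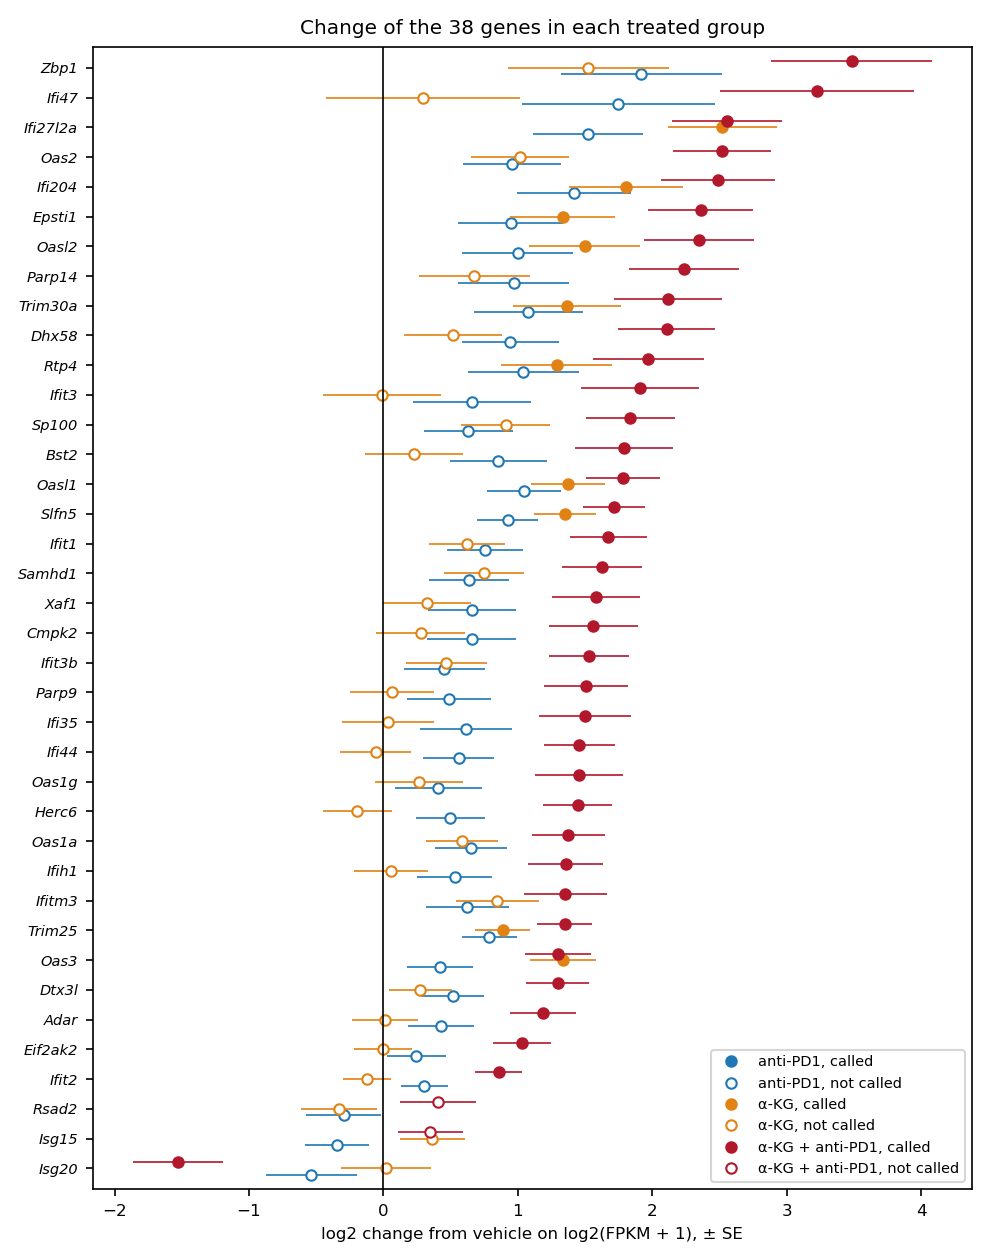
Log2 change from vehicle ± SE (x axis) of the 38 genes (y axis, ordered by the change with α-KG + anti-PD1) in each treated group. Filled points passed an adjusted p of 0.05 in limma and open points did not. The combination is filled for 36 genes, α-KG for 10 and anti-PD1 for none, and Ifi27l2a and Oas3 have near-equal changes with α-KG and with the combination.

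The combination was compared with each single agent. Against α-KG, 26 of the 38 were higher and 1 was lower, where 31.8% of all genes were called higher and 6.47% lower. Ifi47, Zbp1 and Ifit3 changed the most, by 2.93 ± 0.72, 1.96 ± 0.60 and 1.92 ± 0.44, and Isg20 was the gene that fell, at −1.55 ± 0.34. Oas3 (−0.04 ± 0.25, 95% interval −0.56 to 0.49) and Ifi27l2a (0.04 ± 0.41, −0.83 to 0.90) did not pass, nor did Isg15 (−0.02 ± 0.24, −0.53 to 0.50). Rsad2 passed here (0.74 ± 0.28, adjusted p = 0.0491), but in only 8 of 24 alternatives (adjusted p up to 0.179), and Epsti1 passed in 7 of 24. This comparison shares its α-KG tumors with the one of α-KG against vehicle, so genes high in those tumors gain in one and lose in the other.

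Against anti-PD1, 19 of the 38 were higher with the combination and none was lower, where 14.2% of all genes were called higher. Oas2 changed the most, by 1.56 ± 0.37 (adjusted p = 0.0176), followed by Zbp1 (1.56 ± 0.60) and Ifi47 (1.47 ± 0.72), neither of which passed. Isg20 (−0.99 ± 0.34), Ifit2 (0.55 ± 0.18) and Trim25 (0.56 ± 0.20) had the lowest values. The count rested on single tumors and on the spread borrowed from other groups: it was 0 with only these 2 groups in the fit, 0 without anti-PD1 tumor 1 or 4 or combination tumor 3, 1 without combination tumor 1 and 30 without anti-PD1 tumor 2. The calls over all genes moved with it: 1819 were higher with all tumors, 0 with only these groups, 202 and 289 without anti-PD1 tumors 1 and 4, 321 and 908 without combination tumors 3 and 1, and 2616 without anti-PD1 tumor 2.

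Neither α-KG against anti-PD1 nor the interaction of the agents gave a call among the 38. In limma 3.16% of all genes differed between α-KG and anti-PD1 in either direction, and 6 of the 38 had an unadjusted p under 0.05. Oas3 (0.92 ± 0.25, adjusted p = 0.0593), Ifi27l2a (1.00 ± 0.41) and Isg15 (0.71 ± 0.24) were the highest in α-KG relative to anti-PD1, and Ifi47 (−1.45 ± 0.72), Herc6 (−0.69 ± 0.26) and Ifit3 (−0.67 ± 0.44) the lowest. For the interaction, the change that anti-PD1 made with α-KG minus that without it, 11.1% of all genes passed in either direction, and 9 of the 38 had an unadjusted p under 0.05. Ifit3 (1.26 ± 0.62, 95% interval −0.06 to 2.58), Ifi47 (1.18 ± 1.02, −0.99 to 3.34) and Herc6 (1.14 ± 0.36, 0.37 to 1.92) had the highest values, and Ifi27l2a (−1.49 ± 0.58, −2.72 to −0.26) and Isg20 (−1.01 ± 0.48, −2.02 to 0.00) the lowest. Without anti-PD1 tumor 2, 6 of the 38 passed for the interaction, and so did 1865 genes upward and 497 downward of all 12819, a share no smaller than that of the 38.

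Within groups, most of the antiviral genes followed Ifng. A single slope on log2(Ifng + 1) was fitted to the differences among tumors of the same treatment, and 34 of the 38 had a positive slope that passed, against 9.31% of all genes. The steepest belonged to Ifi47, at 1.21 ± 0.26 log2 units per log2 unit of Ifng, Zbp1, at 1.07 ± 0.19, and Ifi204, at 0.77 ± 0.13. Samhd1 had the tightest, 0.62 ± 0.05 (adjusted p = 4.31e-06). The flattest were Isg20, at −0.24 ± 0.18 (95% interval −0.62 to 0.14), Ifit2, at 0.25 ± 0.08, and Isg15, at 0.25 ± 0.12 (0.00 to 0.51), of which only Ifit2 passed. The slope of Ifit2 passed in only 6 of 24 alternatives (adjusted p in limma up to 0.949). Those of Cmpk2 and Adar passed in 6 each, of Eif2ak2 in 8, of Ifi27l2a in 9 and of Oas2 in 10, while that of Samhd1 passed in all 24. Ifit1, at 0.35 ± 0.13, and Rsad2, at 0.29 ± 0.14, did not pass either. The median slope of the 38 was 0.49, and that of 16 tested genes of the interferon gamma program was 1.23, from 0.65 for Nos2, which did not pass, to 1.34 for Igtp, an immunity-related GTPase.

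**Figure D4:**
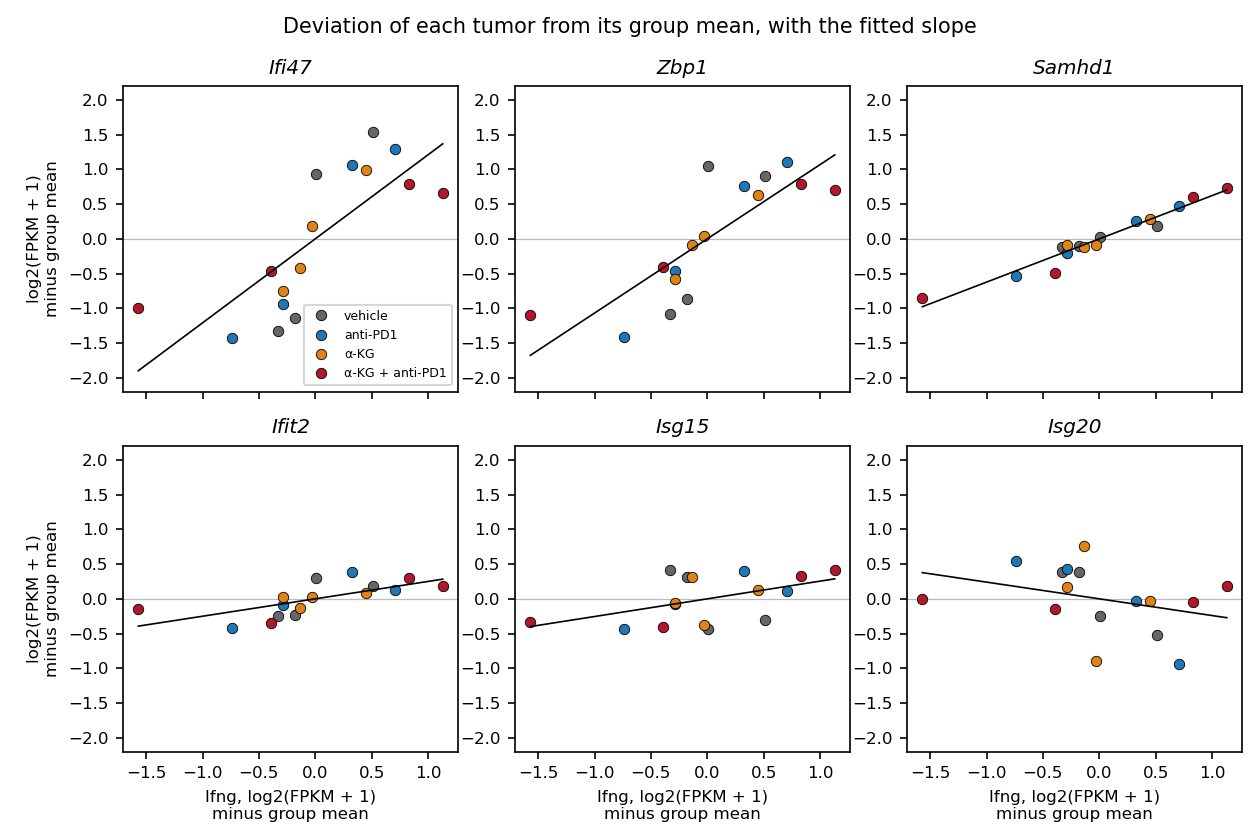
Deviation of each of the 16 tumors from its group mean in Ifng (x axis) and in 6 antiviral genes (y axis), both on the log2(FPKM + 1) scale, with the slope fitted over all groups (line). Points are tumors, colored by group. Ifi47, Zbp1 and Samhd1 rise with Ifng in every group, Ifit2 and Isg15 vary little, and Isg20 shows no rise.

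At equal Ifng, the group differences split. For the combination against vehicle, 0 of the 38 passed in limma, and 4 had an unadjusted p under 0.05. Of all 12849 genes in that fit, 0% passed, and the Ifng ranges of these groups did not overlap, with 1.37 FPKM in the lowest combination tumor and 0.79 in the highest vehicle tumor. The median of the 38 was 0.28, down from 1.57, and it was −0.45 without combination tumor 4. The combination and the rise of Ifng could therefore not be told apart. For anti-PD1 against vehicle 0 of the 38 passed as well, 7 had an unadjusted p under 0.05 and 0.233% of all genes passed in either direction. For α-KG against vehicle, where the Ifng ranges overlapped, 16 of the 38 were higher, against 10.9% of all genes. These were the 10 named above with Samhd1 (0.72 ± 0.08), Sp100 (0.88 ± 0.16), Ifitm3 (0.83 ± 0.20), Zbp1 (1.48 ± 0.35), Oas2 (1.00 ± 0.28) and Oas1a (0.56 ± 0.17). With the leukocyte score added to that fit 0 of the 38 were called and the median fell from 0.47 to −0.12, and with it in place of Ifng 0 were higher, 4 were lower and the median was −0.84. Over 25 alternatives Oas2 passed in 20 and Oas1a in 15. Herc6 (−0.21 ± 0.16, 95% interval −0.56 to 0.13), Eif2ak2 (−0.02 ± 0.17, −0.37 to 0.34), Adar (0.00 ± 0.19, −0.40 to 0.40) and Ifit3 (−0.04 ± 0.31, −0.69 to 0.62) stayed near 0.

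The leukocyte score was higher in the tumors with more Ifng in the vehicle, anti-PD1 and combination groups, but not in the α-KG group, where it barely varied and was lowest in the tumor with the most Ifng. Used in place of Ifng, it had a positive slope for 31 of the 38, against 10.1% of all genes, and Isg15, Rsad2, Ifit1 and Isg20 were among the 7 that did not pass. With both in the fit, the slope on Ifng passed for 1 of the 38, Samhd1, at 0.63 ± 0.08 (adjusted p = 0.00987), where 0.864% of all genes had a positive slope that passed. The slopes of Isg15 and Rsad2 in that fit were 0.63 ± 0.18 and 0.59 ± 0.24, with adjusted p of 0.109 and 0.272. With 4 tumors a group, Ifng and leukocyte content could not be told apart for the 38 genes.

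Genes upstream of the response were described by the same tests. Transcripts of the ligands were scarce: of 19 listed type I and III interferon genes 10 were present, and none was tested. Ifnb1 was 0, 0.26, 0.09 and 0.09 FPKM in vehicle, 0, 0.18, 0.09 and 0 in anti-PD1, 0.11, 0.5, 0.72 and 0 in α-KG and 0.45, 0.22, 0.13 and 0.6 in α-KG + anti-PD1 tumors, and no other ligand exceeded 0.20 FPKM in any tumor. Ifnar1 and Ifnar2, for type I interferon, were 0.42 ± 0.08 and 0.39 ± 0.12 higher with the combination and 0.41 ± 0.08 and 0.58 ± 0.12 higher with α-KG, and Ifngr1, for interferon gamma, was 1.12 ± 0.24 higher with the combination. In all, 5 of 6 receptor genes were higher with the combination and 4 of 6 with α-KG, where 34.9% and 8.4% of all genes were. The same 34.9% stands behind the counts for the combination in the lists that follow.

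Of 14 tested genes that sense nucleic acid or pass the signal on, 12 rose with the combination. Tlr9, the endosomal DNA receptor, changed the most with the combination (1.76 ± 0.31), and Mavs, the adapter of RIG-I and MDA5, the least (0.06 ± 0.09). Myd88, the Toll-like receptor adapter, rose with α-KG alone as well, by 1.33 ± 0.25.

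Of 11 genes of ISGF3, its kinases and its feedback, 10 rose and Ube2l6 fell with the combination. Stat2 rose by 2.18 ± 0.39, Irf9 by 1.46 ± 0.30 and Irf7, which amplifies interferon production, by 1.65 ± 0.28. After α-KG these 3 stayed at 0.23 ± 0.39, 0.64 ± 0.30 and 0.71 ± 0.28, none of which passed. Socs3, an inhibitor of cytokine receptors that interleukin 6 and G-CSF also induce, was the single gene of the 11 that passed after α-KG, at 3.01 ± 0.30. Of all genes, 8.4% were called higher after α-KG.

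The interferon gamma program set the scale for comparison. All 16 of its tested genes rose with the combination, with a median log2 change of 3.64 against 1.57 for the antiviral genes. After α-KG 1 of the 16, Nos2, rose, by 3.83 ± 0.50, where 8.4% of all genes were called higher. The median change after α-KG was 0.66 for the 16 and 0.49 for the 38. At equal Ifng, 7 of the 16 were higher after α-KG than in vehicle, where 10.9% of all genes were. The median there was 0.62, against 0.47 for the 38. The difference between the lists was not tested. Gbp4, a guanylate-binding protein, was 2.94, 1.29, 0.11 and 0.13 FPKM in vehicle, 0.98, 16, 16.8 and 1.56 in anti-PD1, 0.33, 1.63, 0.24 and 0.24 in α-KG and 58.1, 29.7, 51.4 and 10.7 in α-KG + anti-PD1 tumors. Its α-KG tumors lay within the range of vehicle and its combination tumors, except tumor 4, lay above the others.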

How the data were processed

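RNA sequencing of 16 B16F10 tumors, 4 per group, was analysed from gene-level FPKM that the authors deposited in a single table, with 2 decimals and without read counts. Per the labels, the reads were mapped to mm10, and the submitters' processing notes name HISAT and Bowtie2. The program that made the FPKM and its annotation are not given in the sources used here. Depth per tumor is unknown: only 18.9% of 8252 low values fell within 0.1 of a whole step, where 20% would by chance, so no reads were recovered.

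Genes with at least 0.5 FPKM in at least 4 tumors were kept (12850 of 18929), and log2(FPKM + 1) was fitted with limma 3.58.1 (R 4.3.3) with a term for each of the 4 groups. Fold changes on this scale understate those of low genes. Moderated p-values were two-sided and adjusted by Benjamini-Hochberg over all genes tested in each of 11 comparisons, with a threshold of 0.05. The 3 comparisons with vehicle use its 4 tumors in common. The labels give each tumor as a separate sample of its group. Slopes on Ifng, and differences at equal Ifng, came from the same fit with log2(Ifng + 1) as a covariate. Scores are means of log2(FPKM + 1) over marker genes. The slope on the red cell score was chosen after seeing the data.

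Genes given tumor by tumor were a preset list of 17 antiviral genes and Ifng (Mx1, one of them, was not analysed here). Added to them were the 3 highest and 3 lowest in each comparison, the 3 steepest and 3 flattest slopes, and genes that passed where most did not or the reverse. The antiviral genes and all other lists were chosen with earlier results of these data known. Alternatives were other pseudocounts, filters, scalings and covariates, a replicate block, fits of only the groups compared and the omission of each tumor. Tested on a single simulated draw of 12850 genes, the fit called 83% of 2-fold and 97% of 4-fold changes. Of its calls 6.25% were unchanged genes, and 7.11% of its slope calls had no slope, beside a nominal 5%. A single draw cannot tell these shares from the nominal one. Its errors were independent between genes, unlike those of tumors that differ in leukocyte content, so the error rate in the real data was not measured. Tables and plots used Python 3.11.15, numpy 2.4.6, pandas 2.3.3, scipy 1.17.1 and matplotlib 3.10.9.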

Additional observations from a re-analysis of the deposited data

Results flagged for a closer look

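In 152 groups of 4 tumors, one for each antiviral gene and treatment, a single tumor stood apart from the rest by Dixon's criterion, the gap to the nearest tumor over the range of the group, for 2 genes, both in α-KG tumor 2. Samhd1 was 27.1 FPKM there and 20.6 in the next tumor, a gap of 0.939 of the range. Sp100 was 19.1 FPKM there and 10.9 in the next, a gap of 0.963 of the range. Chance alone gives such a gap in about 5% of groups.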

How the results depend on the processing

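The 36 calls for the combination against vehicle were the same under every alternative without Ifng or the leukocyte score in the fit. With the leukocyte score in it, 0 of all 12850 genes passed for this comparison. For anti-PD1 against vehicle the count of 0 became 2 with a pseudocount of 0.1, 1 with centered values and 0 to 7 with 1 tumor left out (7 without vehicle tumor 1). For α-KG against vehicle the 10 calls were 6 to 13 with 1 tumor left out (6 without vehicle tumor 3, vehicle tumor 4 or α-KG tumor 2). For the combination against α-KG the 27 calls were 21 to 29 over all alternatives. For the combination against anti-PD1 the 19 calls became 10 with a pseudocount of 0.1, 5 without a filter, 8 with quantile scaling, 12 with centered values, 36 with equal sums, 0 with only these 2 groups, and 0 to 30 with 1 tumor left out. For α-KG against anti-PD1 the count of 0 became 1 with quantile scaling, centered values, the replicate block or only these 2 groups, and was 0 to 1 with 1 tumor left out. For the interaction it became 1 with quantile scaling, 3 with equal sums and 0 to 6 with 1 tumor left out. For anti-PD1 at equal Ifng it became 1 with a filter at 1 FPKM, 1 with centered values and 0 to 2 with 1 tumor left out. The 34 slopes on Ifng became 22 with the replicate block, 1 with the leukocyte score added, and 23 to 33 with 1 tumor left out. The causes were not tested.

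For α-KG at equal Ifng the 16 calls became 0 with the leukocyte score added and 4, all lower, with it in place of Ifng. In place of Ifng it turned the log2 change to −0.70 for Sp100, −0.58 for Ifi204, −0.57 for Oas2, −0.74 for Samhd1, −0.16 for Trim25, −1.70 for Zbp1, −0.75 for Rtp4, −0.70 for Oas1a, −0.68 for Oasl2, −0.71 for Epsti1, −0.70 for Ifitm3 and −0.92 for Trim30a. Added to Ifng it gave −0.057 for Oas2, −0.16 for Trim25, −0.61 for Zbp1, −0.045 for Oas1a, −0.21 for Ifitm3 and −0.69 for Trim30a.

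Deviations from the group means correlated at −0.642 to 0.411 between tumors with the same number (median 0.007). Between tumors with different numbers they correlated at −0.479 to 0.619 (median 0.004). These values gave no sign of pairing by number but cannot exclude it. The replicate block gave 9 calls for α-KG against vehicle and 16 for the combination against anti-PD1. Scaling moved the split of all genes: 4479 higher and 1348 lower for the combination against vehicle became 2296 and 3951 with quantile scaling, 2197 and 4803 with centered values and 6294 and 250 with equal sums. For the combination against α-KG, 4086 and 832 became 1758 and 3127 with centered values, against anti-PD1 1819 and 168 became 802 and 1968, for α-KG against vehicle 1080 and 968 became 1067 and 1614 with quantile scaling, for the interaction 1027 and 402 became 389 and 633 with centered values, and for the slope 1196 and 179 became 921 and 772 with quantile scaling. Without counts, the depth behind low values such as Ifng and Ifnb1 is unknown.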
